A study of Rattus norvegicus with 12 samples.

Results

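DNA methylation of ventral prostate epithelial cells was compared with that of ventral prostate stromal cells in the F3 generation of the vinclozolin lineage. The comparison used every methylated DNA immunoprecipitation (MeDIP-seq) library of this lineage, 3 epithelial pools and 3 stromal pools, which are 6 of the 12 libraries of the series. Vinclozolin is an agricultural fungicide with anti-androgenic activity. Gestating outbred Hsd:Sprague Dawley SD females (F0 generation) were injected with 100 mg per kg body weight vinclozolin in dimethyl sulfoxide daily on gestation days 8 to 14, and later generations received no injection. Ventral prostates of F3 males aged 19 to 21 days were digested with collagenase, and epithelial and stromal cells were parted by settling and centrifugation. The control lineage descended from females given dimethyl sulfoxide alone, and its 3 epithelial and 3 stromal pools of the same age were used for comparison only. Each pool combined tissue of several rats, so a pool and not an animal was the replicate. No marker sort was used, and the study describes the stromal preparation as mainly mesenchymal fibroblasts.

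The prostate epithelium lines the glands and makes secretions of the seminal fluid, while the stroma is the supporting connective and contractile tissue between the glands. Methylation of cytosine in CpG dinucleotides differs between cell types, often at enhancers and along genes, while CpG-rich promoters are mostly unmethylated in all tissues. MeDIP-seq captures methylated fragments with an antibody against 5-methylcytosine, so the number of reads at a locus rises with both the methylation and the density of CpGs, and it gives no percent methylation at a site. The libraries hold no expression, so the cell type labels could not be checked against expressed markers.

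The vinclozolin lineage pools held between 69470444 and 108544133 window counts on the autosomes, and the control lineage pools held between 55327618 and 84527741. A fragment that crosses several windows can add to each of them, so these sums are not numbers of fragments. The counts of 26187330 autosomal windows of 100 bp were summed into bins of 10 kb, and 259305 bins reached 20 counts when the 6 pools were added up. The median bin tested held 1768 counts. Log2 CPM (counts scaled to equal library totals) of the bins correlated across bins with a Pearson r between 0.962 and 0.979 for every pair of pools. The median SD between pools of a cell type was 0.105 on the log2 CPM scale.

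Methylation signal differed between the epithelial and stromal cells at 4777 bins, which is 1.84% of the bins tested, at an adjusted p below 0.05 in the edgeR quasi-likelihood test. Of these, 2309 bins (0.89% of those tested) were higher in epithelial cells and 2468 bins (0.952%) were higher in stromal cells. The differences were modest in size. The median fold was 1.31 in the bins higher in epithelial cells and 1.38 in the bins higher in stromal cells, and 198 and 547 bins, respectively, reached 1.5-fold. The 3 epithelial and 3 stromal pools did not overlap in 4642 of the called bins, against 18.8% of all bins tested. The bins were called on these same pools, so this follows largely from the call and is no separate support. At an unadjusted p below 0.05 there were 37860 bins. The number of called bins depended on single pools. It was 1572 without epithelial pool 2, 2597 without epithelial pool 3, 1691 without stromal pool 2 and 2198 without stromal pool 3, and DESeq2 called 2275.

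The called bins with the smallest p in each direction and no overlap of pools, at most 1 within any 200 kb, are named here E1 to E8 where the signal was higher in epithelial cells and S1 to S8 where it was higher in stromal cells. The bin S1, at chr4:131460001-131470000 (Rnor 6.0), had 1.57, 1.17 and 1.07 CPM in the 3 epithelial pools and 4.16, 3.86 and 3.92 CPM in the 3 stromal pools. S1 was 3.14-fold higher in stromal cells, a log2 fold change of epithelial over stromal of -1.65 ± 0.14 (SE, edgeR adjusted p = 7.48e-16, n = 3 pools each). In the control lineage its log2 fold change was -1.21 (edgeR adjusted p = 3.90e-05).

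S7, at chr1:209640001-209650000, had the largest fold of the 16 named bins, at 3.32. It had 1.06, 0.592 and 0.528 CPM in the epithelial pools and 2.6, 2.03 and 2.63 CPM in the stromal pools (edgeR adjusted p = 9.05e-11, n = 3). Epithelial pool 1 was higher than the other two epithelial pools. The bin lies 117 kb beyond the nearest gene position the study lists, that of Ebf3, which encodes a transcription factor of the early B-cell factor family. S4, at chr7:60310001-60320000, lies 27.7 kb beyond the listed position of the lysozyme gene Lyc2, and Lyz2, another lysozyme gene, follows it in the gene order of the GRCr8 assembly. Its signal was 2.05 ± 0.163 CPM in epithelial cells and 4.65 ± 0.627 CPM in stromal cells (SD, n = 3).

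The other stromal-higher bins were S2 at chr19:53000001-53010000, S3 at chr13:102630001-102640000, S5 at chr17:72420001-72430000, S6 at chr6:8950001-8960000 and S8 at chr11:36080001-36090000. Their folds ranged from 2.05 in S3 to 2.64 in S5, and no gene position used here lies within 300 kb of them. Epithelial pool 1 was the highest of the epithelial pools in 7 of the 8 bins S1 to S8, the exception being S4.

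E1, at chr6:77600001-77610000, had 5.08, 6.6 and 5.87 CPM in the epithelial pools and 2.93, 2.65 and 2.89 CPM in the stromal pools. The 3 stromal pools were close together. The difference was 2.08-fold, a log2 fold change of 1.06 ± 0.10 (SE, edgeR adjusted p = 1.38e-12, n = 3), and in the control lineage it was 0.81 (edgeR adjusted p = 0.00157). E2, at chr1:33270001-33280000, was 2.09-fold higher in epithelial cells, with 4.87 ± 0.431 CPM against 2.34 ± 0.153 CPM (SD, n = 3). E4, at chr8:62940001-62950000, had 4.45 ± 0.611 CPM in epithelial cells and 2.19 ± 0.249 CPM in stromal cells (SD, n = 3). It lies 158 kb beyond a listed region at Cyp11a1, the gene of the enzyme that starts steroid hormone synthesis from cholesterol, and Ccdc33, Stra6 and Islr follow Cyp11a1 in GRCr8.

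The remaining bins were E3 at chr9:63640001-63650000, E5 at chr3:107750001-107760000, E6 at chr4:82130001-82140000, E7 at chr19:15840001-15850000 and E8 at chr3:142390001-142400000. Their folds ranged from 1.6 in E7 to 2.07 in E8. The smallest difference in the control lineage among the 16 bins was that of E7, with a log2 fold change of 0.19 (edgeR adjusted p = 0.63) beside 0.68 in the vinclozolin lineage.

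**Figure D1:**
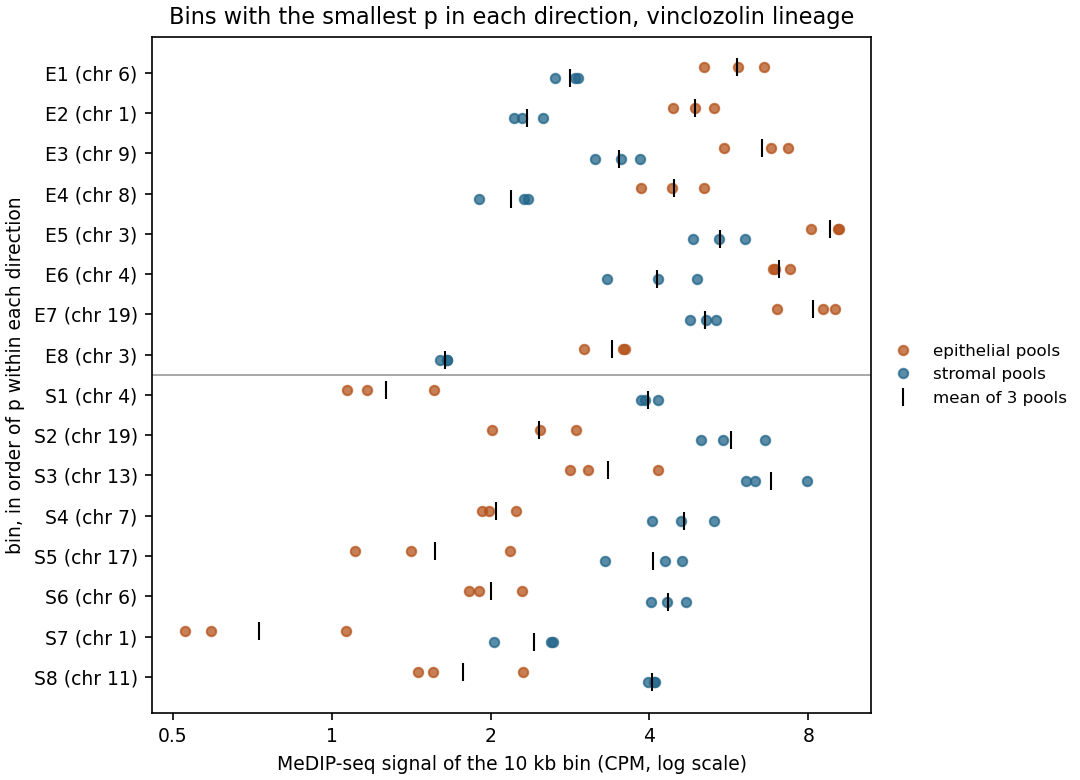
MeDIP-seq signal in CPM (log axis) of the 16 named bins, with a point for each of the 3 epithelial and 3 stromal pools of the vinclozolin lineage and a bar at the mean. The bins were chosen among those whose pools do not overlap, and the largest folds are in S7 (3.32) and S1 (3.14).

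The same contrast was measured in the control lineage, which shares no pool with the vinclozolin lineage. Fewer bins were called there, 295 bins or 0.114% of the same bins, of which 242 were higher in stromal cells and 53 in epithelial cells. The biological coefficient of variation of the bins was 9.7% in the control lineage and 7.7% in the vinclozolin lineage. Of the 295 bins, 208 were also called in the vinclozolin lineage in the same direction, which is 70.5% of the control calls and 4.35% of the vinclozolin calls. None of the 295 was called in the opposite direction. The control calls also depended on single pools, with 131 bins without control epithelial pool 2 and 62, 99 and 69 bins without control stromal pools 1, 2 and 3.

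The control calls gave a set of bins chosen without the vinclozolin pools. Of the 242 bins higher in stromal cells in the control lineage, 238 (98.3%) were higher in stromal cells in the vinclozolin lineage as well, and in 201 the vinclozolin pools did not overlap, against 18.8% of all bins tested in either direction. Their median signal was 3.19, 2.71 and 2.79 CPM in the epithelial pools and 4.25, 4.22 and 4.1 CPM in the stromal pools. Epithelial pool 1 again lay nearest to the stromal pools. Of the 53 bins higher in epithelial cells in the control lineage, 51 (96.2%) had this direction in the vinclozolin lineage, with a median of 4.09, 4.25 and 4.24 CPM in the epithelial pools and 3.22, 3.26 and 3.25 CPM in the stromal pools. The part of stromal cells left in epithelial pool 1 in these values was not tested.

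Conversely, 4016 of the 4777 bins called in the vinclozolin lineage (84.1%) had the same direction in the control lineage, against 56.8% of all bins tested. The share was 80% among the 3218 bins with an adjusted p between 0.01 and 0.05 and 99.6% among the 239 bins with an adjusted p below 1e-04. The median difference in those 239 bins was 0.71 on the log2 scale in the vinclozolin lineage, which chose them, and 0.51 in the control lineage. The control pools did not overlap, in the same direction, in 34.2% of the called bins, against 8.93% of all bins tested.

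**Figure D2:**
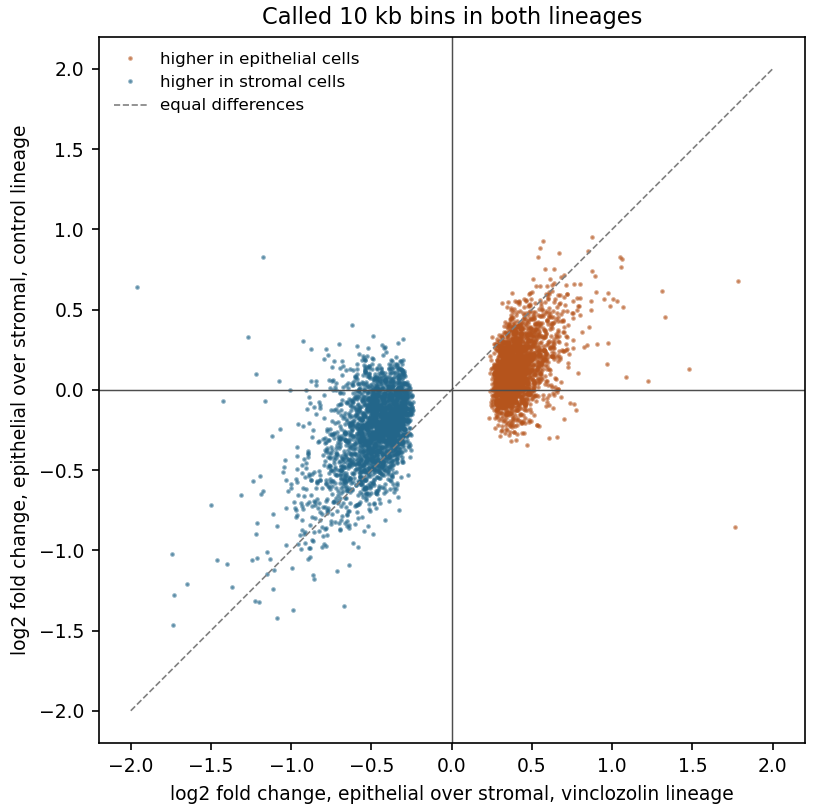
Log2 fold change of epithelial over stromal signal for the 4777 bins called in the vinclozolin lineage, with the vinclozolin lineage on the x axis and the control lineage on the y axis. Most points, 4016 of 4777, lie in the lower left or upper right quadrant.

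The difference between the lineages was tested as an interaction of lineage and cell type over the 12 pools. No bin passed the edgeR test after adjustment (smallest adjusted p = 0.298), and 17422 bins (6.72%) had an unadjusted p below 0.05. Of the 57 called bins with a difference of 2-fold or more, 50 had the same direction in the control lineage. Among the other 7, the bin with the smallest unadjusted interaction p lay at chr5:163750001-163760000, and it was chosen after its values were seen. It had 18, 37 and 14 counts in the epithelial pools and 79, 47 and 43 counts in the stromal pools of the vinclozolin lineage. In the control lineage it had 31, 28 and 47 counts in epithelial pools and 15, 10 and 29 in stromal pools. Its interaction did not pass the threshold (edgeR adjusted p = 0.578).

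Gene positions in Rnor 6.0 were taken from the transcripts that the study lists, since no annotation of this build was used here. This gave 416 autosomal protein-coding genes, all of them on the study's lists of transcripts that differed between lineages, so they are not a sample of all genes. The listed position was taken as the lower coordinate of the transcript, which would be the start of a gene on the plus strand and the far end of a gene on the minus strand. The lists do not state this, and it was inferred from where the signal was lowest. Genes on the minus strand also had low signal near the listed position, though less low than genes on the plus strand, so this reading is uncertain. A called bin lay within 10 kb of the listed position for 56 of the 416 genes (13.5%), while 5.05% of all bins were called or adjacent to a called bin. The count was 27 without epithelial pool 2, 31 without stromal pool 2, 31 without stromal pool 3 and 33 with DESeq2. The bin with the smallest p was higher in stromal cells at 40 of the 56 genes and higher in epithelial cells at 16. Of all 4777 called bins, 2468 were higher in stromal cells. The direction was the same in the control lineage at 53 of the 56 genes, and the bin was called there too at 8. Among all called bins, 84.1% had the same direction in the control lineage and 4.35% were called there in that direction. At 16 of the 56 genes, Cbr3, Cd24, Tspan1, Meis1, Map4k4, Akr7a2, Aldh2, Wnt10a and Rftn1 among them, the bin passed under each of 19 alternative analyses. The genes described next were picked from the 56 after their values were seen, except for members of the gene lists given further on.

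Several genes next to bins with more signal in stromal cells are known from epithelia, but 40 of the 56 genes had this direction. Of the 2 called genes of the epithelial list given further on, Rab25 had more signal in epithelial cells and Hoxb13 in stromal cells. Cd24 encodes a small glycoprotein anchored to the cell surface. The bin at its listed position, chr20:48330001-48340000, had 3.49, 2.87 and 2.67 CPM in the epithelial pools and 4.39, 5.6 and 5.55 CPM in the stromal pools. All 3 stromal pools were above the epithelial pools, by 1.72-fold (log2 fold change -0.78 ± 0.11 SE, edgeR adjusted p = 3.16e-07, n = 3), and the control lineage gave -0.77 (edgeR adjusted p = 0.00202). Pigr, the gene of the receptor that carries polymeric immunoglobulin across epithelia, had 2 called bins within 10 kb, and the bin with the smallest p was 1.4-fold higher in stromal cells. Bins by Tspan1, a tetraspanin gene, and Mlph, the gene of the vesicle transport protein melanophilin, were 1.6-fold and 1.3-fold higher in stromal cells. The call at Mlph was lost in 5 of 19 alternative analyses, among them those without epithelial pool 2 or 3 or stromal pool 3, and that at Pigr in 3, among them those without epithelial pool 2 or stromal pool 1.

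Other genes in the stromal direction encode enzymes and carriers. Cbr3, a carbonyl reductase gene, had the largest fold of the 56 genes. The bin 563 bp beyond its listed position had 2.44, 1.37 and 1.74 CPM in the epithelial pools and 4.01, 3.35 and 3.93 CPM in the stromal pools, which was 2.05-fold higher in stromal cells (edgeR adjusted p = 5.89e-08, n = 3). The pools of the cell types did not overlap. The bins by Aldh2 (mitochondrial aldehyde dehydrogenase), Akr7a2 (an aldo-keto reductase), Prdx2 (peroxiredoxin 2) and Slc12a2 (the sodium, potassium and chloride cotransporter NKCC1) were 1.48-fold, 1.54-fold, 1.38-fold and 1.57-fold higher in stromal cells, respectively. The call at Prdx2 was lost without epithelial pool 2 and that at Slc12a2 without stromal pool 2.

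Regulators of transcription and of methylation were among the genes in this direction. Foxd2, a forkhead transcription factor gene, had 2 called bins, and the bin at its listed position had 4.45, 2.93 and 2.49 CPM in epithelial cells and 5.97, 5.97 and 5.81 CPM in stromal cells (edgeR adjusted p = 2.38e-08, n = 3). DESeq2 did not call this bin. Epithelial pool 1 was again the highest of the epithelial pools. The bin at Uhrf1, whose product brings the maintenance methyltransferase to replicated DNA, had 1.38, 1.76 and 1.62 CPM in epithelial cells and 1.91, 2.33 and 2.86 CPM in stromal cells, a 1.47-fold difference (edgeR adjusted p = 0.0333, n = 3). The call at Uhrf1 was lost when any pool other than stromal pool 1 was left out, and the control lineage gave a log2 fold change of -0.10 (edgeR adjusted p = 0.919).

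Genes next to bins with more signal in epithelial cells included Dcn, the gene of decorin, a proteoglycan of the connective tissue matrix that fibroblasts secrete. The bin at its listed position, chr7:38740001-38750000, had 2.4, 2.79 and 2.49 CPM in the epithelial pools and 1.8, 1.72 and 1.79 CPM in the stromal pools. The stromal pools were close together and below every epithelial pool. The difference was 1.45-fold (log2 fold change 0.54 ± 0.14 SE, edgeR adjusted p = 0.0234, n = 3), and it was called in the control lineage too, with a log2 fold change of 0.83 (edgeR adjusted p = 0.012). In the vinclozolin lineage the call at Dcn was lost without epithelial pool 2 or 3 or stromal pool 2 or 3. Meis1, a homeobox transcription factor gene, had the largest fold of the 16 genes in this direction, at 1.72. The bin by it had 3.73, 4.02 and 3.97 CPM in epithelial cells and 2.49, 2.2 and 2.09 CPM in stromal cells (edgeR adjusted p = 4.30e-06, n = 3). The control lineage gave a log2 fold change of 0.11 (edgeR adjusted p = 0.891), and the difference between the lineages did not pass the test (edgeR adjusted p = 0.578).

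Genes of signalling pathways were found in both directions. The bin with the smallest p was 1.49-fold higher in epithelial cells by Wnt10a, which encodes a secreted Wnt ligand, and 1.35-fold higher by Smad7, which encodes an inhibitor of transforming growth factor beta signalling. It was 1.45-fold higher by the kinase gene Map4k4 and 1.33-fold higher by Dusp7, a phosphatase gene of the mitogen-activated protein kinase pathway. The call at Dusp7 was lost in 8 of the 19 alternative analyses and that at Smad7 without stromal pool 2. In the stromal direction, bins by Lif, the gene of the cytokine leukemia inhibitory factor, and Nrp2, a receptor gene for semaphorins, were 1.23-fold and 1.22-fold higher (edgeR adjusted p = 0.0225 and 0.0338, n = 3). The call at Nrp2 was lost in 9 of the 19 alternative analyses, among them each that left out 1 pool other than epithelial pool 3, and that at Lif without epithelial pool 2 or stromal pool 2 or 3. The bin by Col13a1, a transmembrane collagen gene, was 1.3-fold higher in epithelial cells. The bin by Rab25, which encodes a GTPase of epithelial vesicle recycling, was 1.39-fold higher in epithelial cells. The call at Col13a1 was lost without epithelial pool 3 and that at Rab25 without stromal pool 3. The neighbouring bin that holds the listed position of Rab25 had the other direction, with a log2 fold change of -0.20, and was not called (edgeR adjusted p = 0.386).

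**Figure D3:**
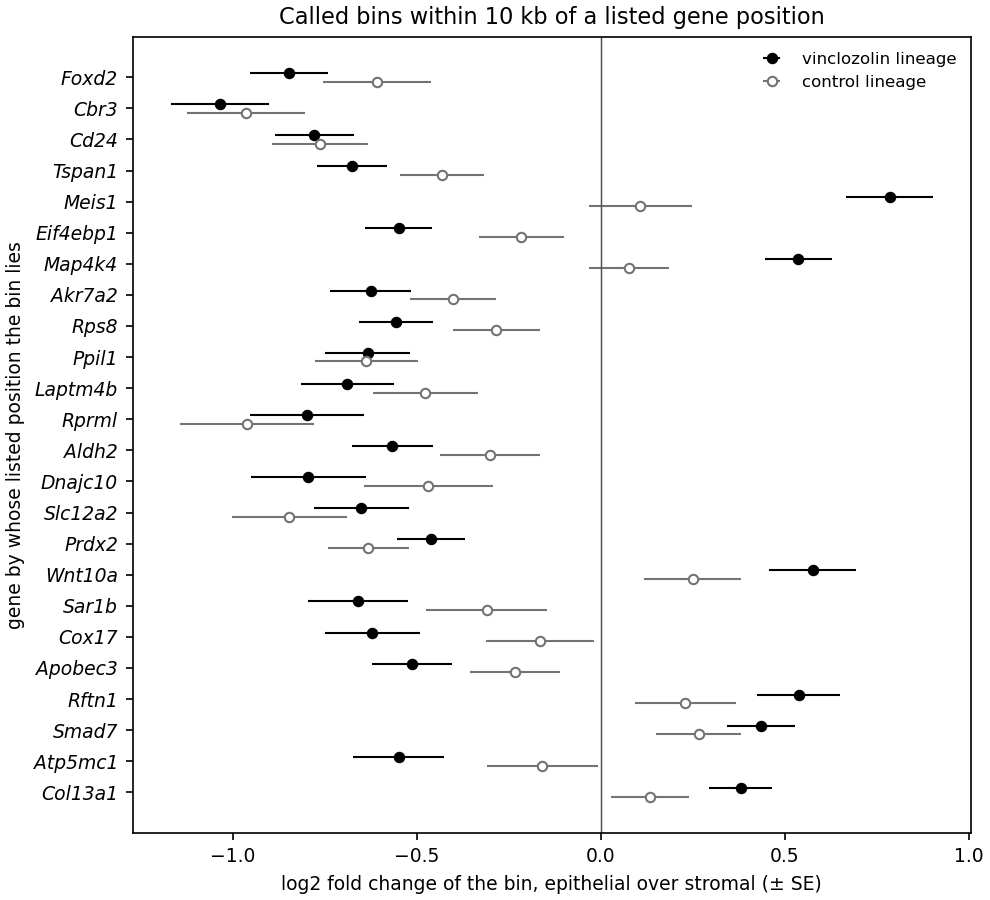
Log2 fold change of epithelial over stromal signal with its SE for the called bin by 24 of the genes, taken in order of p, in the vinclozolin lineage (filled) and the control lineage (open). Rprml, Slc12a2 and Prdx2 lie further from 0 in the control lineage than in the vinclozolin lineage, whereas Meis1 (0.11) and Map4k4 (0.08) are near 0 in the control lineage.

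Lists of cell type and pathway genes held 297 genes, of which 22 had a listed position and 6 (27.3% of the 22) had a called bin within 10 kb, against 13.5% of the 416 genes and 5.05% of all bins called or adjacent to a called bin. Counts of 0 or 1 among 4 or 5 genes are too few to set against these shares. The 6 genes with a called bin included Rab25, Hoxb13, Dcn, Meis1 and Uhrf1. The median log2 fold change of the bins at the listed positions was 0.036 for the 22 genes, -0.034 for all 416 genes and -0.0031 for all bins. Of the 5 fibroblast genes with a position, Dcn had a called bin and Lum, Snai2, Prrx1 and Zeb1 had none. The bin at Lum had the opposite direction to that at Dcn, with a log2 fold change of -0.24 and no overlap of pools (edgeR adjusted p = 0.256). Those at Snai2, Prrx1 and Zeb1 gave 0.25, 0.10 and 0.14, with overlapping pools. None of the 4 smooth muscle genes (Synpo2, Myocd, Pdlim3 and Pdlim7) had a called bin. None of the 4 genes of androgen signalling, which included Cyp17a1, Srd5a2 and Nr3c1, had one either. Hoxb13, a homeobox gene of the prostate, had a called bin 8.05 kb beyond its listed position that was 1.3-fold higher in stromal cells (edgeR adjusted p = 0.0388, n = 3) and was not called when any pool but epithelial pool 1 was left out. Cdh3, Ebf1, Peg3 and Gli2, from the lists of basal epithelial, mesenchymal, imprinted and growth factor genes, had no called bin. The bins at their listed positions had log2 fold changes of -0.03, -0.32, 0.05 and 0.02, respectively. The endothelial, leukocyte, neural and adipocyte markers had no position here, so signal at them was not assessed.

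Bins were also examined at 9 genes taken from the many regions where the study places differential methylation between lineages, regions that it chose on the same pools. The bin at Bcl2, a gene that protects cells from apoptosis, had 3.71, 4.3 and 3.49 CPM in the epithelial pools and 2.58, 2.36 and 2.48 CPM in the stromal pools. The pools did not overlap, and the log2 fold change of 0.64 ± 0.12 (SE, n = 3) passed the test (edgeR adjusted p = 2.60e-04). In the control lineage the log2 fold change was 0.19 (edgeR adjusted p = 0.708), and the interaction did not pass (edgeR adjusted p = 0.658). No bin was called at Srd5a2, Fli1, Slc18b1, Slc36a4, Csrnp3, Syne1, Arl5b or Hacd1, where log2 fold changes lay between -0.04 and 0.12.

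The position of the difference relative to a gene start was examined at genes on the plus strand. Over the 178 such genes, the signal was lowest at the listed position in both cell types, a pattern that was also used to read what the listed position is. In the 500 bp that follow the position it averaged 0.0664 ± 0.00441 CPM per gene in epithelial cells and 0.0703 ± 0.00391 CPM in stromal cells (SD, n = 3). These values differed by less than the spread between pools. Between 1500 and 2000 bp beyond the position the averages were 0.154 ± 0.00165 and 0.169 ± 0.00407 CPM, and between 2000 and 2500 bp they were 0.154 ± 0.00902 and 0.174 ± 0.00204 CPM (SD, n = 3). The segment from 2000 to 1500 bp before the position gave 0.177 ± 0.00503 and 0.197 ± 0.0043 CPM, and that from 1500 to 1000 bp before it gave 0.157 ± 0.00214 and 0.173 ± 0.00698 CPM (SD, n = 3). Every stromal pool was above every epithelial pool in these 4 segments and in 13 of all 40 segments within 10 kb, and the reverse held in 1. However, 3 pools against 3 cannot give an exact two-sided permutation p below 0.1, and the distances were chosen after the values were seen. Over the 147 genes on the minus strand these counts were 5 and 2 of 40 segments. Their signal was also low near the listed position. It was 0.147 ± 0.00626 CPM in epithelial cells and 0.156 ± 0.00808 CPM in stromal cells in the 500 bp before it (SD, n = 3).

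Low signal at the listed position was also seen at 3 of the 4 single genes profiled, and not at Cd24, which had 0.656 CPM in epithelial cells and 0.868 CPM in stromal cells in the first 1 kb. All 4 genes are on the plus strand of GRCr8. At Cd24 the signal was lowest from 6 to 7 kb beyond the listed position, with 0.027 CPM in epithelial cells and 0.0608 CPM in stromal cells. The promoters of Slc12a2, Cbr3 and Rftn1 are shown because the signal was lowest just beyond the listed positions of these genes in both cell types. Whether these positions in Rnor 6.0 match the promoters in GRCr8 was not checked. The sequences are the RefSeq promoters of GRCr8, from 250 bases before to 50 bases after the gene start, 5′ to 3′, with each CpG in capitals.
Slc12a2: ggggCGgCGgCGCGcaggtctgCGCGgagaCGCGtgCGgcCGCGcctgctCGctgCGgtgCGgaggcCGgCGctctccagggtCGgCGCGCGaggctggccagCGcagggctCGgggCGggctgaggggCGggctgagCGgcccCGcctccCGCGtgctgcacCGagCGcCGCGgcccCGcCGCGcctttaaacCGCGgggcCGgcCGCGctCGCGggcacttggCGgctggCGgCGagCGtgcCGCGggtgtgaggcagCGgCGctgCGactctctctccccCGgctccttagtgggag
Cbr3: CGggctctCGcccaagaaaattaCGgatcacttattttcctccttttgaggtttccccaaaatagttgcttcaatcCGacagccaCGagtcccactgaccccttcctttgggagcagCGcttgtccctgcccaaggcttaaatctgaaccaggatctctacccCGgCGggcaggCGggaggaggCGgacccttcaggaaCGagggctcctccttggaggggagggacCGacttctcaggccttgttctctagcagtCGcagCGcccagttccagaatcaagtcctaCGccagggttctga
Rftn1: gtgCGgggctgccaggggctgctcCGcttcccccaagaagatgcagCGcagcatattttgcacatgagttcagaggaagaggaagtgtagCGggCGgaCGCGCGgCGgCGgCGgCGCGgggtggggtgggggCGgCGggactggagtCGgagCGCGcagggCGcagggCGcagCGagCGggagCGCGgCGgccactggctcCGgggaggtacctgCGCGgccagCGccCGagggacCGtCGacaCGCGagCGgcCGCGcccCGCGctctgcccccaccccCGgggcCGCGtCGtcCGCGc
They hold 52, 15 and 45 CpGs, respectively, where the median of the 33469 promoters in the table is 7. As many CpGs or more are found in 0.493%, 32% and 1.66% of all promoters of this length. The window of 100 bp that holds the listed position of Slc12a2 and the 3 windows before it together held 0.0, 0.0 and 6 counts in the epithelial pools and 4, 2 and 2 in the stromal pools. The same windows at Rftn1 held 0 counts in each of the 6 pools, and those at Cbr3 held 1 count in 1 epithelial pool and 0 in the others.

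The direction along the profile differed among these genes. At Slc12a2 epithelial cells had the higher mean in the 4 segments from 5 to 1 kb before the position, with 0.821 against 0.625 CPM and no overlap of pools in the outermost of them. The segment from 4 to 5 kb beyond the position had a mean of 0.521 CPM in epithelial cells and 0.965 CPM in stromal cells, and stromal cells were higher in all 10 segments of 1 kb from 0 to 10 kb. At Cbr3 stromal cells were higher in 9 of 10 segments, and the widest gap lay before the listed position, from 2 to 1 kb upstream, with 1.07 CPM in epithelial cells and 1.65 CPM in stromal cells and no overlap of pools. At Rftn1, which encodes a protein of lipid rafts, the direction was the opposite, with 1.07 CPM in epithelial cells and 0.666 CPM in stromal cells from 2 to 3 kb and epithelial cells higher in 9 of 10 segments. At Cd24 stromal cells were higher in all 10 segments. In S1 the stromal signal was higher in all 10 segments of the bin, and in E1 the epithelial signal was higher in 8 of 10. These are counts of means, and the bins in or by which the segments lie were called on the same pools. The counts therefore follow largely from the call and are no separate support. Every stromal pool was above every epithelial pool in 12 of the 17 segments profiled at Cd24, 10 at Cbr3 and 5 at Slc12a2. The reverse held in 3 of 17 at Rftn1 and 1 at Slc12a2.

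**Figure D4:**
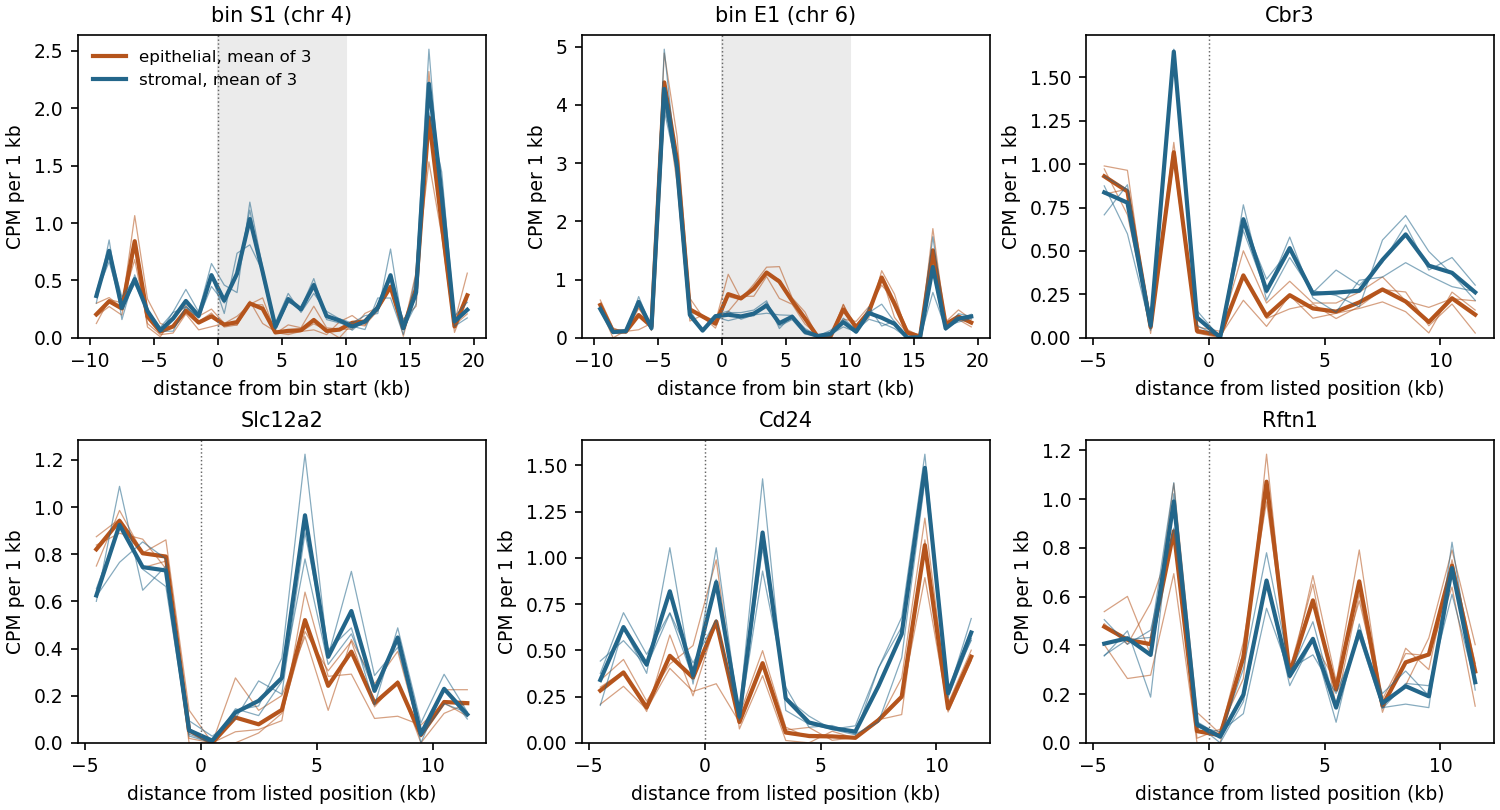
MeDIP-seq signal in CPM per 1 kb segment against distance from the bin start (S1 and E1) or from the listed gene position (Cbr3, Slc12a2, Cd24 and Rftn1), with thin lines for the 6 pools and thick lines for the means of 3. Both cell types are near 0 at the listed position of Cbr3, Slc12a2 and Rftn1, and the pools of Cbr3 are apart both upstream and downstream of it.

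Called bins of the same direction were sometimes adjacent. There were 233 runs of 2 or more adjacent bins higher in stromal cells, holding 554 bins, and 121 such runs higher in epithelial cells, holding 264 bins. Runs depended on single pools and on the processing. There were 69 runs of 3 or more bins with all pools, 14 without epithelial pool 2, 36 without epithelial pool 3, 24 without stromal pool 2, 31 without stromal pool 3 and 33 with DESeq2. The number was 30 when only windows with 20 or more counts were summed and 39 when thinned to the shallowest of the 12 pools. The longest run had 9 bins at chr10:91620001-91710000, and it ended 494 bp before the listed position of Rprml, a gene of the Reprimo family. Its summed signal was 23.7, 22.7 and 22.6 CPM in the epithelial pools and 32.9, 33.8 and 32.2 CPM in the stromal pools, and all 9 bins had the same direction in the control lineage. A run of 7 bins at chr8:53000001-53070000 had 28.9, 25 and 25.7 CPM in epithelial pools and 39.6, 37.9 and 39.7 CPM in stromal pools, and 4 of its bins were called in the control lineage too. The other run of 7 bins lay at chr10:94620001-94690000, where 5 bins had the same direction in the control lineage.

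The longest run higher in epithelial cells had 5 bins at chr3:107720001-107770000. Its summed signal was 21.1, 24.4 and 23.4 CPM in the epithelial pools and 14.5, 14.4 and 14.4 CPM in the stromal pools, and it includes E5. A run of 4 bins at chr10:84140001-84180000 lies beyond Hoxb13, after which Hoxb9, Hoxb8 and Hoxb7 follow in the gene order of GRCr8. These homeobox genes set position along the body axis. The run had 28.2, 26.5 and 25.8 CPM in epithelial cells and 20.6, 18.7 and 18.2 CPM in stromal cells, which is the opposite direction to the bin called by Hoxb13 itself. A run of 4 bins at chr1:78520001-78560000 had 13.2, 13.4 and 13.3 CPM in epithelial cells and 9.34, 8.07 and 9.75 CPM in stromal cells.

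The direction of the called bins differed among the chromosomes in count, with no test made of it. On chromosome 10, 252 bins were higher in stromal cells and 83 in epithelial cells, and on chromosome 12 the numbers were 118 and 36. Chromosomes 5, 19 and 20 also had more bins in the stromal direction, with 247, 103 and 88 against 122, 47 and 43. On chromosome 9, in contrast, 148 bins were higher in epithelial cells and 58 in stromal cells, and chromosomes 16 and 18 had 119 and 100 in the epithelial direction against 56 and 43. The share of bins called ranged from 1.38% on chromosome 15 to 2.99% on chromosome 10. The median log2 fold change over all bins of a chromosome stayed between -0.03 and 0.02. It was lowest on chromosomes 10 (-0.028) and 12 (-0.024) and highest on chromosomes 9 (0.017) and 16 (0.014), the same direction as their called bins. The outermost 2 Mb of the autosomes had 112 called bins of 7806 (1.43%), and chromosome 12 from 45 Mb had 20 of 770 (2.6%). The share called was 1.84% of all bins tested and 2.97% of the bins of chromosome 12 as a whole.

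**Figure D5:**
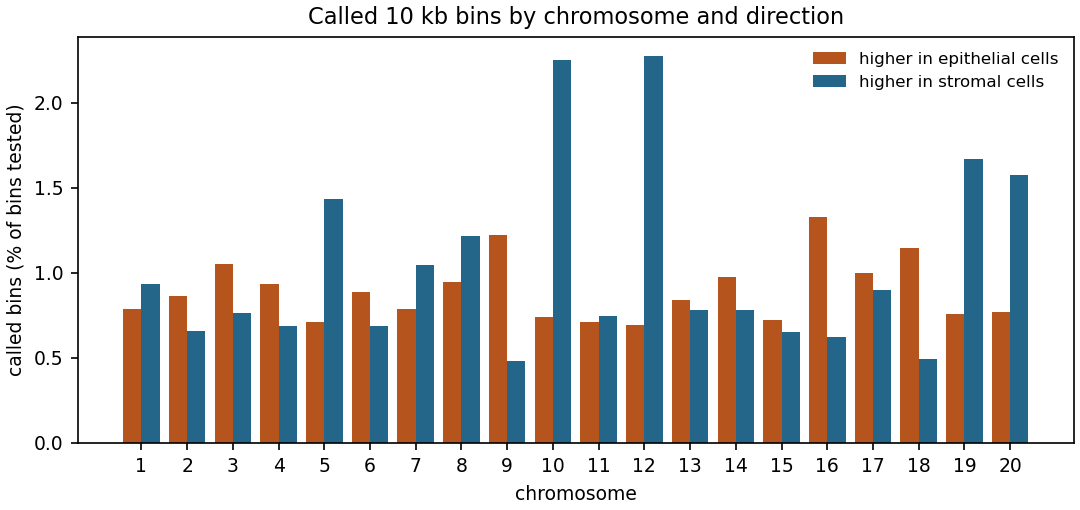
Percent of the tested bins of each autosome that were called higher in epithelial cells or in stromal cells. The stromal bars are highest on chromosomes 12 (2.27%) and 10 (2.25%), and the epithelial bar is highest on chromosome 16 (1.33%).

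The direction also moved with the level of signal. When the bins were split by mean signal into 10 classes of equal size, 28 called bins of the lowest class were higher in epithelial cells and 98 in stromal cells. In the second highest class 501 were higher in epithelial cells and 305 in stromal cells. The median log2 fold change of all bins was -0.04 in the lowest class and -0.03 in the highest, and its highest value in any class was 0.02. The median signal was 4.56 CPM in called bins higher in epithelial cells, 3.53 CPM in those higher in stromal cells and 3.28 CPM in all bins tested. The part of the signal level in the counts by chromosome was not tested.

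At the resolution of single windows, 7747055 windows of 100 bp had a summed count of at least 20. Of these, 1383 windows (0.0179%) passed the edgeR test, 696 of them higher in epithelial cells (0.00898%) and 687 higher in stromal cells (0.00887%). There were 616597 windows with an unadjusted p below 0.05. The window calls were less stable than the bin calls. With the pool number as a replicate block, on the assumption that same-numbered pools came from the same rats, 493 windows passed. The count was 626, 8 and 87 without epithelial pools 1, 2 and 3 and 492, 164 and 511 without stromal pools 1, 2 and 3. The even split of directions depended on single pools too, since 28.7% of the calls were higher in epithelial cells without stromal pool 2, 65.5% without epithelial pool 3 and 100% without epithelial pool 2. DESeq2, run on chromosome 20 alone, called 0 windows there where edgeR called 74, with 4177 and 16187 windows at an unadjusted p below 0.05. The called windows had larger folds and far fewer counts than the bins, with a median fold of 3.65 in the epithelial direction and 4.33 in the stromal direction and a median summed count of 69 and 63. Of the windows higher in epithelial cells, 246 (35.3%) lay in a bin called in the same direction, and of those higher in stromal cells 216 (31.4%) did. Among all bins tested 0.89% and 0.952% were called in these directions, but the counts of a bin include those of its windows.

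The window with the smallest p lay at chr9:27188501-27188600. It had 20, 25 and 20 counts in the epithelial pools and 2, 3 and 2 counts in the stromal pools, which was 9.74-fold higher in epithelial cells (edgeR adjusted p = 1.39e-05, n = 3). In the control lineage it had 9, 19 and 3 counts in epithelial pools and 1, 5 and 2 in stromal pools, and these overlapped. A window at chr17:4329601-4329700 had 15, 22 and 20 counts in epithelial pools and 5, 1 and 0.0 in stromal pools. A window at chr13:52594401-52594500, 68.5 kb before the listed position of the troponin gene Tnnt2, had 20, 28 and 27 counts in epithelial pools and 8, 4 and 5 in stromal pools. Windows at chr18:55922201-55922300 and chr11:60950701-60950800 were 3.34-fold and 3.1-fold higher in epithelial cells.

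In the stromal direction the window with the smallest p lay at chr2:258896901-258897000, with 8, 10 and 8 counts in the epithelial pools and 36, 38 and 32 in the stromal pools. The control lineage had 7, 13 and 15 counts in epithelial pools and 18, 23 and 19 in stromal pools there, which did not overlap either. Windows at chr13:49330801-49330900, chr6:29387601-29387700 and chr14:46526901-46527000 were 4.41-fold, 5.32-fold and 2.39-fold higher in stromal cells. The bins that hold these 4 windows were not called, with log2 fold changes between -0.23 and -0.07. The remaining window, at chr7:60317001-60317100, lies within S4 and had 5, 10 and 13 counts in epithelial pools and 36, 33 and 38 in stromal pools. None of these 5 windows was called without epithelial pool 2.

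Of the called windows, 35 had no read in the 3 epithelial pools and 5 had none in the 3 stromal pools. The one with the smallest adjusted p, at chr8:129023001-129023100, had 0.0, 0.0 and 0.0 counts in the epithelial pools and 12, 13 and 5 counts in the stromal pools, which was at least 9.08-fold higher in stromal cells when the 3 epithelial pools together are set at the 3 counts that a count of 0 allows. At chr1:2545601-2545700 the stromal pools had 0.0, 0.0 and 0.0 counts and the epithelial pools had 4, 13 and 7 counts, at least 8.81-fold higher in epithelial cells on the same floor. Such bounds cover counting error only. These windows reached 20 summed counts through a single cell type, and they are extremes picked from 7747055 windows tested. Their number and their bounds therefore follow in part from the filter. Called windows were also clustered, with 211 bins holding 2 or more, but nearby windows can share fragments and are not separate observations. The bin with the most, on chromosome 18 from 32590001, held 7 windows, all higher in epithelial cells, and its own log2 fold change was 0.80 (edgeR adjusted p = 8.05e-08). A bin on chromosome 13 from 73170001 held 5 windows, 2 higher in epithelial and 3 higher in stromal cells, and the bin as a whole did not pass the test (log2 fold change 0.05, edgeR adjusted p = 0.829).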

How the data were processed

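MeDIP libraries of rat ventral prostate cells were sequenced as paired ends. The authors trimmed reads (Trimmomatic), aligned them to Rnor 6.0 (Bowtie2, SAMtools) and deposited raw counts per 100 bp window (MEDIPS). Tool versions for the MeDIP libraries are not given in the sources used here. Deposited counts reach a ceiling of 300 in a window.

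Autosomal windows were summed into 10 kb bins. Windows and bins that reached 20 counts when the 6 pools were added up were tested with edgeR 4.0.16 (TMM scaling from the bins, quasi-likelihood F test, Benjamini-Hochberg adjustment, threshold 0.05) in R 4.3.3. The dispersion trend of the windows came from 300000 windows drawn at random. SEs are the log2 fold change over the square root of F. The bin and window tests were tested on simulated data with known changes. Fold changes are epithelial over stromal.

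The 8 bins, 5 windows and 3 runs of smallest p or greatest length were named per direction, together with members of gene lists and the regions the study reports. The contrast, members and lists were chosen with earlier results of these data known. No annotation of Rnor 6.0 was used, so promoters and gene bodies were not tested. Some genes are not reported here. Of 1350 symbols with a listed position, 1065 matched a RefSeq symbol of GRCr8.

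Each group of rats gave both an epithelial and a stromal pool, per the study's methods. That same-numbered pools come from the same rats was assumed from the labels, and the methods do not state it. Deviations of same-numbered pools from the group means correlated with r = -0.0247, 0.0337 and -0.0173 across bins, and those of other numbers with -0.033 to 0.0483. Pools of the same cell type are separate sets of rats, and the main fits left out the pairing of same-numbered pools. The p-values rest on the spread between pools, which edgeR estimated with information shared across bins or windows. Alternatives covered scaling, filters, bin size, tests, depth, the replicate block and leaving out each pool.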

Additional observations from a re-analysis of the deposited data

How the results depend on the processing

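The main bin count of 4777 stayed within 1.5 times under other scaling, filters, thinning, the edgeR exact test and the bias-adjusted quasi-likelihood test, which gave between 3340 and 5752 calls. It was 2275 with DESeq2 and 3179 with bins of 50 kb, where fewer units were tested. Leaving out 1 pool gave 1572 to 4582 bins. A similar count did not mean the same bins. Of the 4777 bins, 2797 were kept when only windows with 20 or more counts were summed and 2842 when thinned to the shallowest of the 12 pools. Without epithelial pool 1 or stromal pool 1, 3230 and 3237 were kept, respectively, and the exact test kept 4777. The share of called bins higher in epithelial cells ranged from 41.1% to 52.1%, against 48.3% in the main analysis. The main window count of 1383 became 2898 at a summed count of 40 or more, 2140 with the exact test and 8 to 626 without 1 pool. DESeq2 called 0 of the windows of chromosome 20, against 74 with edgeR. The control lineage gave 62 to 419 bins without 1 pool, against 295. The interaction gave 0 calls in each of the 15 fits, with 13306 to 19246 bins at an unadjusted p below 0.05. All 16 named bins and the bin at Bcl2 passed under each of 19 alternatives, 16 of 56 genes and 5 of 10 named windows kept the call under each alternative run on them, and no named bin, gene or window changed direction. The bias-adjusted test and the thinning to the shallowest of the 12 pools were chosen after seeing the data.

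With the pool number as a replicate block, a pairing assumed from the labels, 3922 bins, 493 windows and 416 control bins were called, and the interaction gave 0. Of the 56 genes, Gucy2g, Tas1r2, Ppia, Lyc2 and Dad1 lost the call with the block, and no other call of a named bin, gene or region changed. Promoters and gene bodies were not run, since no annotation of Rnor 6.0 was used, and the causes of these changes were not tested. In counts simulated from these pools, edgeR recovered 92 of 99 bins changed by 1.5-fold among 259278 bins. On the 182585 windows of chromosome 20 it recovered 10 of 101 windows changed by 2-fold and 86 of 99 changed by 4-fold. The changed bins and windows were drawn only from those at or above the median count. A fixed dispersion was set for all, and the windows were adjusted over chromosome 20 alone. In this setting most windows changed by 2-fold were not recovered, and the shares do not give the detection over all bins and windows tested.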
